A study of Mus musculus with 72 samples.

Results

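The AP-1 family genes described here are the 8 mouse genes Fos, Fosb, Fosl1, Fosl2, Jun, Junb, Jund and Atf3, out of 22380 protein-coding genes of GENCODE vM1. They were chosen by name, and the ChIP-seq peaks assigned to them are those within 50 kb of their gene bodies on the mm9 genome. Chromatin of wild-type cells (WT, Hmgn1+/+ n2+/+) was compared with chromatin of double knockout cells lacking the nucleosome-binding proteins HMGN1 and HMGN2 (DKO, Hmgn1-/- n2-/-), all of the C57BL/6 strain, in 2 libraries per genotype and antibody. The main lists are those of mouse embryonic fibroblasts (MEFs) for H3K27ac, p300, Brd3 and CEBPB, and lists of embryonic stem cells (ESCs) and resting splenic B cells (rBs) serve as a contrast. The DKO is constitutive, the lists hold no measure of the HMGN proteins, and no RNA was analysed here, so neither the genotype nor the output of the genes is checked by these values. Peaks near the members numbered 626 of 324192 for H3K27ac, 233 of 84995 for Brd3, 27 of 39103 for CEBPB and 22 of 19020 for p300, summed over 4 libraries each.

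Proteins of the Fos and Jun families pair through leucine zippers to form the transcription factor AP-1, which binds the sequence TGACTCA and its close variants. Fos, Fosb, Jun, Junb and Atf3 are immediate early or stress genes, switched on by growth factors and injury, and in fibroblasts AP-1 occupies many enhancers. H3K27ac marks active promoters and enhancers, p300 is an acetyltransferase that places that mark, Brd3 is a BET protein whose bromodomains read acetylated histone tails, and CEBPB is another leucine zipper factor, abundant in fibroblasts, which can also pair with members of the ATF group. AP-1 was not itself immunoprecipitated.

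All 8 of 8 fibroblast marker genes had a promoter H3K27ac peak in all 4 MEF libraries, against 0 of 7 B cell markers, 1 of 7 ESC markers and 1 of 7 markers of other cells. The lists differed in length between genotypes, which bears on every count below. The Brd3 lists held 31404 and 33072 peaks in WT and 8970 and 11549 in DKO, and the CEBPB lists held 14197 and 14692 in WT and 4886 and 5328 in DKO. The p300 lists fell from 7323 and 5398 to 2974 and 3325 peaks, while the H3K27ac lists held 84850, 84760, 76968 and 77614. The lowest local background that could be solved, a measure of sequencing depth in reads per position, was 1.75 and 1.89 in the WT Brd3 libraries and 1.24 and 1.54 in the DKO Brd3 libraries. For H3K27ac it was 1.65 and 1.44 in WT and 1.77 and 1.87 in DKO, so there the DKO libraries were the deeper ones. In the p300 libraries it was 1.58 and 1.15 in WT and 1.22 and 1.27 in DKO. It could not be solved for CEBPB, nor for Nanog and CTCF in ESCs, whose depth is unknown. The same held for both DKO libraries of Ikaros, DKO replicate 1 of Ets1 and DKO replicate 2 of Sox2. Some DKO libraries of Irf8, Oct2 and Pax5 were not solved either.

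The genes lie on different chromosomes and in different surroundings. Fos (chr12:86814840-86818223, plus strand) and Jun (chr4:94715725-94718913, minus strand) had 0 other protein-coding genes within 50 kb. Fosl2 (chr5:32438845-32460204, plus strand) and Atf3 (chr1:192994175-193007219, minus strand) each had 1. Jund (chr8:73221638-73224515, plus strand) had 4, Fosb (chr7:19888070-19895394, minus strand) had 7, Junb (chr8:87500811-87502617, minus strand) had 8 and Fosl1 (chr19:5447703-5455945, plus strand) had 10. Peaks near any gene with neighbours can therefore belong to a neighbour, and promoters of neighbours are named as such below. Only protein-coding genes were counted. Brd3 sites near Jun at chr4:94764318-94766264 and chr4:94767707-94768119 had summits at or near exons of another gene, BC042782. The H3K27ac site at −48106 bp from Jun, described below, lies between them, so peaks there can also belong to that gene.

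The letters under the peaks show the families of motifs that the members' sites carried. Sequences are given from the mm9 genome, plus strand unless said otherwise, with motif matches in capitals. The motifs searched, on either strand and up to 100 bp from a summit, were the AP-1 site TGACTCA, the cyclic AMP response element (CRE) TGACGTCA, the CEBP site TTGCNNAA, the CEBP-ATF composite TGATGCAA and the CArG box that serum response factor binds. No stretch of letters can match both TTGCNNAA and TGATGCAA on the same bases, although neighbouring matches may overlap. A match is a run of letters and not a measured binding site.

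CEBPB peaks near the members are shown first, because Atf3 carried the composite motif at each of its sites. The Atf3 sequence of 29 bases comes from the promoter summit, within an exon, and the longer one from the summit at −18072 bp from the start. The Fosl2 peak lies in an intron, the Fosl1 peak at −2976 bp and the Fosb peak at −17297 bp. This Fosb peak was called in WT replicate 2 only.
chr1:193007127-193007155, Atf3: actgtggctgggagcgcgTTGCATCAccc
chr1:193025258-193025338, Atf3: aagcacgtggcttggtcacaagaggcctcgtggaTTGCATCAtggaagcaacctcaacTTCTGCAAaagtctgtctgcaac
chr5:32441911-32441991, Fosl2: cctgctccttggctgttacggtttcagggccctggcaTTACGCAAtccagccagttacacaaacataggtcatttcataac
chr19:5444698-5444778, Fosl1: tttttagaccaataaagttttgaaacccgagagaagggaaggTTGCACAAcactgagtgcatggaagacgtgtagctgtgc
chr7:19912661-19912741, Fosb: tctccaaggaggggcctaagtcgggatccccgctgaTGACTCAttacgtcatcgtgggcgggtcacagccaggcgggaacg
The composite TGATGCAA, read as TTGCATCA on the printed strand, was within 100 bp of the summit at 3 of 13 CEBPB sites near the members, and all 3 were the sites of Atf3, while 9.27% of all 17002 CEBPB sites held it. The CEBP site was present at 7 of 13 sites of the members against 49.6% of all CEBPB sites. The AP-1 site was present at 1 of 13, the Fosb site shown, against 17.3% of all.

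The p300 peaks are shown for the AP-1 letters under them. Both Jun peaks printed were called in WT replicate 1 only, and the Fosl1 and Junb peaks in all 4 libraries.
chr19:5429997-5430077, Fosl1: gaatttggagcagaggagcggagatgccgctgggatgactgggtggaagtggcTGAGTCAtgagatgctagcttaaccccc
chr4:94668288-94668368, Jun: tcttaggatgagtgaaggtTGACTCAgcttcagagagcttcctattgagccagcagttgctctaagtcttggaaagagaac
chr4:94750870-94750950, Jun: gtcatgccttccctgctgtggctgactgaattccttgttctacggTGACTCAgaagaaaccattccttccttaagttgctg
chr8:87509542-87509622, Junb: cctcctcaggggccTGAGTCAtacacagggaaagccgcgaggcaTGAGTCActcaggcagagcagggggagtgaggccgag
TGACTCA, or TGAGTCA on the other strand, was found around the summits of 7 of 10 p300 sites near the members, and 38.1% of all 9180 p300 sites held it. The 7 sites belonged to Fosb, Fosl1, Fosl2, Jun with 3, and Junb. The Jun site not printed was called in replicate 1 of each genotype only. The CEBP site was at 0 of 10 of them, against 11.3% of all p300 sites. Among Brd3 sites of the members 7 of 100 held the AP-1 site, near the 4.27% of all Brd3 sites.

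The promoters of the members themselves, from 250 bases before to 50 after a start, held TGACTCA in 0 of 8 genes, where 4.42% of all promoters held it. Both upstream stretches with an ATF or CRE motif are printed on the strand of their gene, up to the base before the start. The second start of Jund lies inside the annotated gene.
chr1:193007220-193007469, Atf3: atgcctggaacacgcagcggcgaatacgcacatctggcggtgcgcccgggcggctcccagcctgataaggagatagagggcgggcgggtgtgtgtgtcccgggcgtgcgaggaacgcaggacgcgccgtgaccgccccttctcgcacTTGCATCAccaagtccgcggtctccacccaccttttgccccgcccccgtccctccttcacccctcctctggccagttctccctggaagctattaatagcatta
chr8:73222607-73222856, Jund: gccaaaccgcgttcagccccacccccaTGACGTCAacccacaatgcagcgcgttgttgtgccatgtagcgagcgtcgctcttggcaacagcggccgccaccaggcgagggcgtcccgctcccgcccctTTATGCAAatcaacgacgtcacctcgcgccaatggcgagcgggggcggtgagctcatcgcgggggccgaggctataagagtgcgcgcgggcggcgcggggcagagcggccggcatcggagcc
Atf3 was the only member with the composite motif in its promoter (0.827% of all promoters), and Jund the only member with the CRE (2.32%). Members were searched at every start, but the shares of all promoters come from the outermost start of each gene. At its outermost start Jund held the CEBP site and no CRE, so its CRE has no like background. Fosl1 and Jund held a CEBP site (10.3%). The CArG box was found in 0 of 8 at the letters searched, which says only that these letters are not in this window.

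To ask whether the loss of HMGN1 and HMGN2 altered the landscape around the AP-1 genes, peaks near each gene were counted per library. The plot of peak numbers in MEFs shows every count. All 8 members passed the filter of at least 1 peak on average for H3K27ac and Brd3, and 3 of 8 passed it for CEBPB and for p300. Log2 of the number plus 1 was compared with limma over all genes that passed, with Benjamini-Hochberg adjustment. An exact permutation of 2 libraries against 2 cannot give a p below 0.333, and the prior degrees of freedom of the fit were infinite, so each adjusted p rests on a spread shared by genes of like level and not on the member's own replicates.

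**Figure D1:**
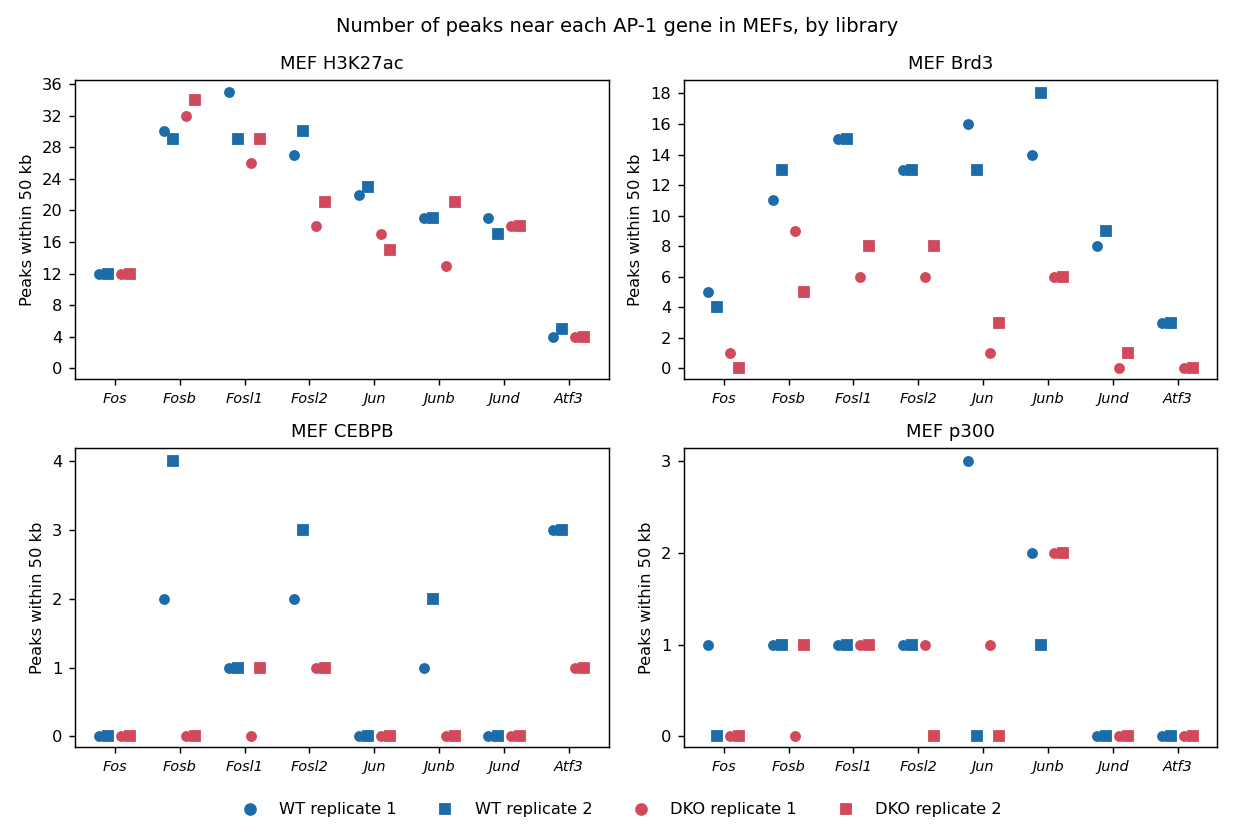
Number of peaks within 50 kb (vertical axis, peaks per library) of each AP-1 gene in MEFs for 4 antibodies, with 1 point per library and WT in blue and DKO in red. Brd3 counts of both DKO libraries lie below both WT libraries at all 8 genes, whereas H3K27ac counts do so at Fosl2 and Jun.

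Among the Jun genes, Brd3 peaks near Jun, the principal partner of Fos, numbered 16 and 13 in the WT libraries, and 1 and 3 in those of DKO. Both DKO libraries lay far below both WT libraries, and the number fell by 2.45 on the log2 scale (SE 0.34, limma adjusted p = 3.28e-11). Jund, the most constant member of the family, had 8 and 9 Brd3 peaks in WT and 0 and 1 in DKO, a log2 change of −2.75 (SE 0.44, limma adjusted p = 1.59e-08). Junb, which often opposes Jun, had 14 and 18 in WT and 6 in each DKO library, a log2 change of −1.27 (SE 0.28, limma adjusted p = 4.02e-05). Genotypes did not overlap at any of the 3 Jun genes.

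Of the Fos genes, Fos itself had 5 and 4 Brd3 peaks in WT and 1 and 0 in DKO (log2 −1.95, SE 0.50, limma adjusted p = 0.000476). Fosl1, which encodes Fra-1, had 15 in each WT library and 6 and 8 in DKO (log2 −1.01, SE 0.27, limma adjusted p = 0.000973). Fosl2, which encodes Fra-2, had 13 in each WT library and 6 and 8 in DKO (log2 −0.82, SE 0.28, limma adjusted p = 0.0091). Fosb had 11 and 13 in WT and 9 and 5 in DKO (log2 −0.74, SE 0.29, limma adjusted p = 0.0194). The genotypes were apart at each of the 4 Fos genes, and the counts of Fos itself were the lowest of the 4 in both. Atf3, a stress-induced repressor that pairs with Jun proteins, had 3 Brd3 peaks in both WT libraries and 0 in both of DKO, so its fitted change (−2.00, limma adjusted p = 0.00182) depends on the 1 added to each count and is no measured fold.

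All 8 members were thus called lower, where 58.5% of the 14025 genes tested were called lower and 0.0713% higher. That share covers genes of every peak number, while Fosb, Fosl2, Jun, Fosl1 and Junb stood at WT percentiles between 95.4 and 98.0. The share among genes of like peak number was not computed. Atf3, Fos and Jund averaged under 1 peak in DKO and passed the filter through their WT libraries, so their differences are in part built in. The genotypes did not overlap at 8 of 8 members and, in this direction, at 76.0% of all genes. Summed over the members, there were 85 and 88 Brd3 peaks in the WT libraries, and 29 and 31 in those of DKO, a log2 ratio of −1.53 beside −1.65 for the whole lists. Relative to the median gene, which changed by −1.08, Jund lay at −1.66, Jun at −1.36, Atf3 at −0.92 and Fos at −0.87, while Junb (−0.19), Fosl1 (0.07), Fosl2 (0.27) and Fosb (0.34) were near or above it. When counts were scaled to the number of peaks in each library, Jun (log2 −1.17, SE 0.32, limma adjusted p = 0.0149) and Jund (−1.97, SE 0.58, limma adjusted p = 0.0236) were called lower, Atf3 (−1.57) and Fos (−1.11) kept negative values that did not pass, and Fosb (0.76), Fosl2 (0.69), Fosl1 (0.51) and Junb (0.24) turned positive without passing the test. With that scaling 775 genes were lower and 859 higher over the whole table, against 8209 lower and 10 higher without it. With a library left out 5 of 8 members were called without DKO replicate 1, 5 without DKO replicate 2 and 0 without either WT library (limma adjusted p 0.317 to 0.674), but without a WT library the fit called only 42 of 13353 and 33 of 13269 genes. The changes themselves stayed about as large there, at −2.31 and −2.59 for Jun and −2.82 and −2.67 for Jund. With the prior variance taken from all genes in the usual way, 4 members were called (Atf3, Fosl1, Junb and Jund). With lists shortened to an equal number of their strongest peaks, 0 members were called by limma, where 3 genes were lower and 13 higher in all (691 had an unadjusted p under 0.05). The values were then −1.29 for Jund, −0.66 for Jun, −0.07 for Fosl2, 0.00 for Junb, 0.31 for Fosl1 and 0.63 for Fosb (limma adjusted p 0.636 to 1.0), and Fos and Atf3 were under the filter.

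**Figure D2:**
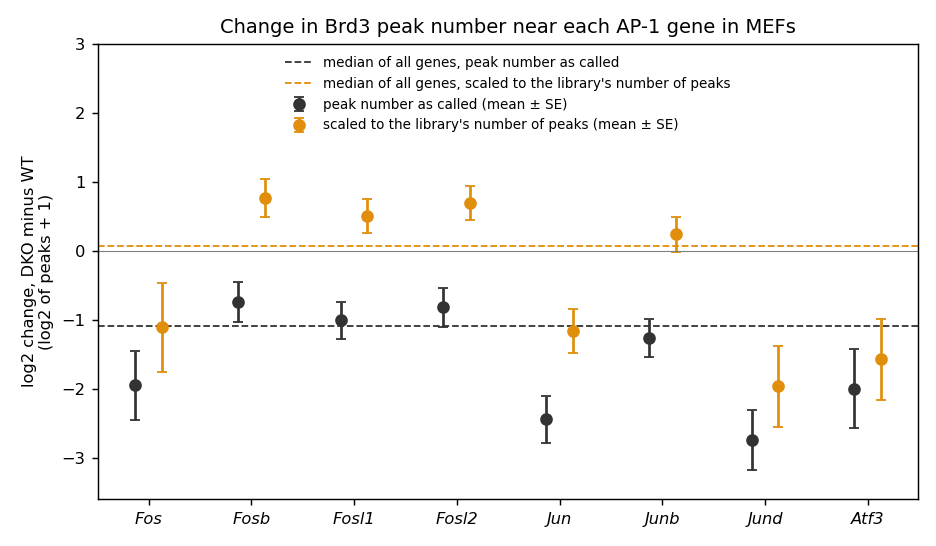
Log2 change in Brd3 peak number, DKO minus WT (vertical axis, log2 of peaks plus 1), for each AP-1 gene with its standard error, from counts as called (black) and scaled to the number of peaks of the library (orange). Dashed lines give the median gene under each scaling, −1.08 and 0.07, and Jun, Jund, Fos and Atf3 lie below the median in both.

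At promoters of the members, within 1000 bp of a start, Brd3 formed 15 sites, of which 6 were WT-only, meaning called in both WT libraries and neither DKO library, and 2 were called in all 4 libraries. The 2 constant sites were those of Fosl2 (chr5:32438112-32441413), with fold enrichment 8.24 and 13.2 in WT and 10.8 and 9.36 in DKO, and of Jun (chr4:94719257-94720959), with 7.76 and 7.74 in WT and 5.51 and 5.40 in DKO. The genotypes overlapped at Fosl2 and not at Jun, and neither site passed the test (log2 −0.05 and −0.51, limma adjusted p = 0.902 and 0.139). The WT-only promoter sites lay at Fosl1, Fosl2, Jun, Jund and, with 2, Junb, and one of the Junb sites covered the 3′ side of the gene (chr8:87499696-87502024) with fold enrichment 5.61 and 8.16. At the Fos promoter a Brd3 site (chr12:86814529-86815032) was called in WT replicate 2 (2.80) and DKO replicate 1 (5.25) only, so no genotype pattern was seen at that site. Another site within 1000 bp of the start (chr12:86814097-86814355) was called in WT replicate 2 only. Further upstream, a site outside the promoter (chr12:86812933-86813509) was WT-only. Over all 100 Brd3 sites near the members 25 were WT-only and 0 DKO-only, where the shares over all 39745 Brd3 sites were 27% and 0.0428%. The most enriched WT-only Brd3 site outside promoters was near Atf3 at −41369 bp (chr1:193048363-193048813), with fold enrichment 8.58 and 8.94.

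Brd3 fold enrichment could be compared at the 16 sites called in all libraries. It was lower at 3 of them, where 20.6% of 5422 sites were. All 3 lay at other genes' promoters, namely Gm10463 next to Fosl2 (chr5:32435051-32437441), with 9.19 and 12.1 in WT and 5.62 and 6.14 in DKO, and Mus81 and Cfl1 near Fosl1. Centred on the median shared site, which changed by −0.39, 0 of the 16 passed limma (45 higher and 36 lower of all sites did). By −log10 q 7 of the 16 were lower, the same 3 and the Jun promoter (−1.36, limma adjusted p = 0.0191) among them, where 2947 of 5422 sites were. As a plain ratio of pileup to background 0 passed limma, with summits matched within 500 bp 1 did, and with a library left out 0 (without DKO replicate 1) to 2 did.

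For H3K27ac the log2 ratio summed over the same genes was −0.18, beside −0.13 for its whole lists. The Brd3 values were −1.53 and −1.65, so each antibody lay near the ratio of its own lists. The difference between the antibodies was not tested. Fos had 12 H3K27ac peaks in each of the 4 libraries. Fosl2 had 27 and 30 in WT and 18 and 21 in DKO, with genotypes apart, and was the only member called (log2 −0.53, SE 0.15, limma adjusted p = 0.021), where 4.14% of 17312 genes were called lower and 0.826% higher. Jun, with 22 and 23 in WT and 17 and 15 in DKO, was also apart but did not pass (log2 −0.47, limma adjusted p = 0.0816), and 28.9% of all genes were apart in this direction. Fosb went the other way, with 30 and 29 in WT and 32 and 34 in DKO (log2 0.16), and was not called. Fosl1 (35, 29, 26 and 29), Junb (19, 19, 13 and 21), Jund (19, 17, 18 and 18) and Atf3 (4, 5, 4 and 4) overlapped between genotypes, with log2 values between −0.21 and 0.00 beside a median gene of −0.14. Without any 1 of the 4 libraries Fosl2 was not called (limma adjusted p 0.681 to 1.0), where the fit called 3 to 17 genes in all, and its change stayed between −0.42 and −0.63. It was 0.00 when peaks within 1000 bp were counted as 1, and −0.40 when counts were scaled to the number of peaks (limma adjusted p = 0.162), a scaling that moved the split over all genes from 716 lower and 143 higher to 290 and 220. With the prior variance from all genes its adjusted p by limma was 0.214.

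The position of these sites is seen in the map of distances from the start. Of 191 H3K27ac sites near the members, 85 were called in all 4 libraries, 14 were WT-only and 6 DKO-only, against shares of 40.4%, 5.83% and 4.4% over all 104443 sites. Fosl2 held 7 of the WT-only sites, 5 of them inside its gene body, and the most enriched pair lay at 13157 and 13758 bp from the start, with fold enrichment 7.02 and 5.42, and 6.64 and 6.14, in the WT libraries. Jun held 4, of which 3 fell between −40726 and −42942 bp, and the one with the highest values (chr4:94761070-94761370) had fold enrichment 6.35 and 6.62. Fosl1, Jund and Atf3 held 1 each. Of the DKO-only sites Fosb held 4 and Fosl1 and Jund 1 each, and the most enriched one near Fosb lay at −25615 bp (4.50 and 5.50 in DKO). All of these were weak peaks, with fold enrichment under 8, whereas promoter sites such as that of Fos reached over 20.

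**Figure D3:**
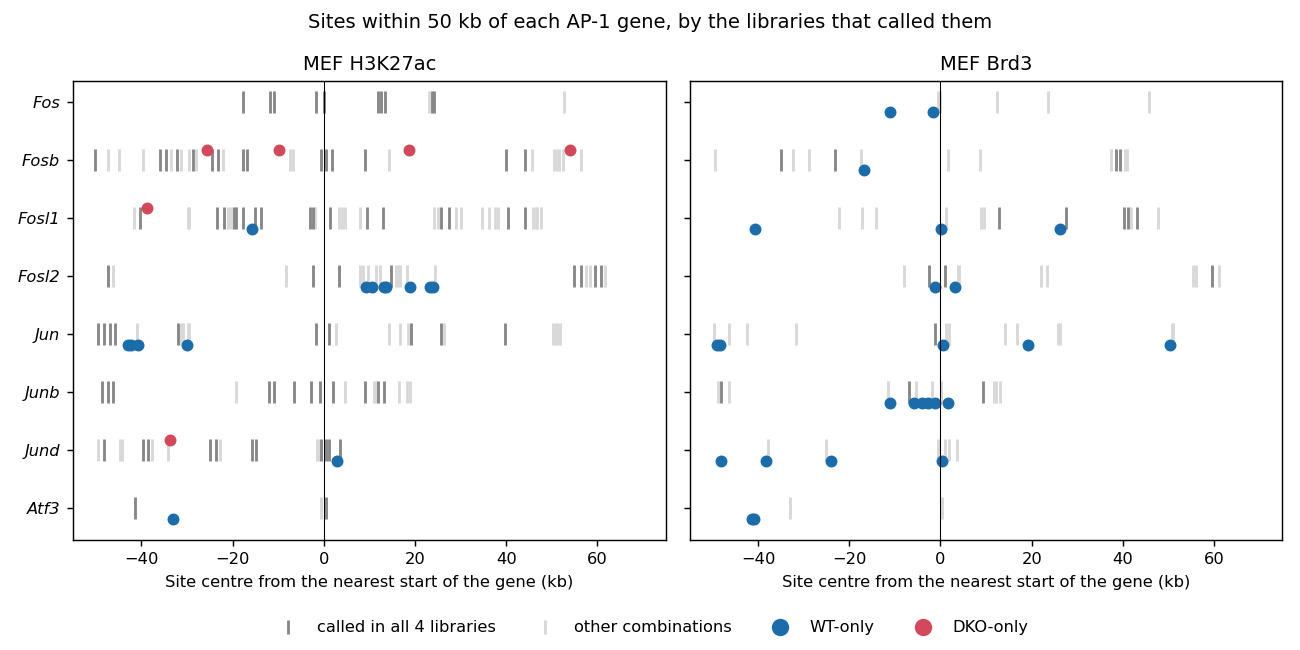
Position of each H3K27ac site (left) and Brd3 site (right) near the AP-1 genes, as distance of the site centre from the nearest start in kb along the direction of transcription (horizontal axis), coloured by the libraries that called it. WT-only H3K27ac sites gather downstream of the Fosl2 start and upstream of the Jun start, and Brd3 has 25 WT-only and 0 DKO-only sites.

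Promoter H3K27ac was present in both genotypes at every member, and 14 of 15 promoter sites were called in all 4 libraries. Jund showed the clearest rise. Its site over the outer start and up to the inner one (chr8:73221476-73222649) had fold enrichment 10.9 and 9.63 in WT and 20.7 and 19.5 in DKO, a log2 change of 0.98 (SE 0.20, limma adjusted p = 0.00388), while the site from the inner start to past the gene end (chr8:73222906-73225015) had 27.7, 18.1, 22.1 and 24.3 and did not differ beyond its spread (limma adjusted p = 0.902). Fosb showed the opposite. Its promoter site (chr7:19894124-19895668) had 25.6 and 22.4 in WT and 13.4 and 15.7 in DKO (log2 −0.72, SE 0.19, limma adjusted p = 0.0162), while a site at 9011 bp from the start, past the 3′ end of the gene (chr7:19886136-19886630), had 10.2 and 6.63 in WT and 19.7 and 16.4 in DKO (log2 1.13, SE 0.23, limma adjusted p = 0.00345). At Fos the promoter (chr12:86813874-86816076) had 24.6 and 25.8 in WT and 30.1 and 34.6 in DKO, genotypes apart, but the change of 0.36 did not pass (SE 0.15, limma adjusted p = 0.146). The promoters of Fosl1, Fosl2, Jun, Junb and Atf3 had log2 changes between −0.37 and 0.12 and none passed limma.

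Over the 85 H3K27ac sites called in all libraries, 8 were lower and 2 higher, where 5.6% and 2.79% of 42234 sites were. Beside the Fosb promoter, the lower ones included a site at −15023 bp from Fosl1 (chr19:5432260-5433101), with 8.69 and 6.57 in WT and 3.01 and 3.08 in DKO (log2 −1.31, SE 0.27, limma adjusted p = 0.00329), and a site at −48106 bp from Jun (chr4:94766444-94767595), with 10.4 and 9.67 in WT and 4.47 and 4.60 in DKO (log2 −1.15, SE 0.26, limma adjusted p = 0.00616). Distal sites of Fosl2 at −47250 bp (log2 −0.91) and Jund at −15798 bp (−0.88) were also lower, as were sites at the promoters of Cd3eap and Ppp1r13l near Fosb (−0.68), Fibp near Fosl1 (−0.53) and Rnaseh2a near Junb (−0.83). Centred on the median shared site, which changed by −0.08, 6 sites passed, 4 of them lower, and both rises at Jund and Fosb were among them. The split over all sites depended on the measure: 2367 sites were lower and 1177 higher in fold enrichment, 1527 and 1641 after centring, and 474 and 1187 when −log10 q was compared instead. By −log10 q the Fosl1 site at −15023 bp was the only one of the 8 lower sites that passed (limma adjusted p = 0.0275). The Fosb promoter did not (limma adjusted p = 0.072), and the change was −0.05 at the Cd3eap and Ppp1r13l site and −0.12 at Fibp. Both rises passed by −log10 q (limma adjusted p = 0.0309 at Jund and 0.00182 at Fosb), and the Fos promoter was also called higher (0.79, limma adjusted p = 0.0193).

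**Figure D4:**
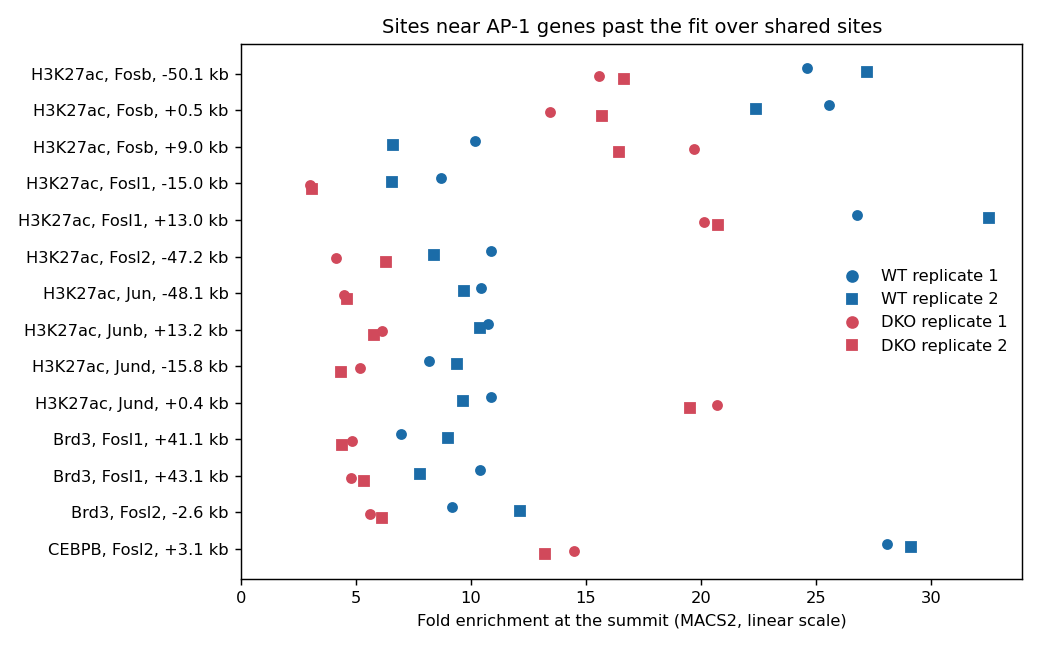
Fold enrichment at the summit (horizontal axis, linear ratio of pileup plus 1 to background plus 1) in each library at the sites near AP-1 genes that passed limma, labelled by antibody, gene and distance from the start in kb. The genotypes do not overlap at any site, which is in part built in because the sites were selected by that test. The Fosb site at +9.0 kb and the Jund site at +0.4 kb are the 2 where DKO lies above WT.

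CEBPB was called near 5 of the members, and near Fos, Jun and Jund 0 peaks were called in any library. Atf3 had 3 peaks in both WT libraries and 1 in both of DKO (log2 −1.0, SE 0.37, limma adjusted p = 0.0165). Fosb had 2 and 4 in WT and 0 in each DKO library (fitted log2 −1.95, limma adjusted p = 0.000428), and it passed the filter through its WT libraries alone, so its difference is in part built in. Fosl2 had 2 and 3 in WT and 1 in each DKO library and did not pass (log2 −0.79, SE 0.39, limma adjusted p = 0.0843). Fosl1 (1, 1, 0 and 1) and Junb (1, 2, 0 and 0) were under the filter. Thus 2 of the 3 members tested were called lower, and 43.4% of 6406 genes were (0.0468% higher). Without any 1 library 0 of these calls remained, where the fit called 0 to 313 genes in all. Atf3 was not called with counts scaled to the lists (log2 −0.06), and Fosb was (−1.56, limma adjusted p = 0.0109), a scaling under which 1326 genes were lower and 464 higher. With the prior variance from all genes Atf3 was called and Fosb was not (limma adjusted p = 0.0737).

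Individual CEBPB sites differed in how much remained. The intronic Fosl2 site printed above (chr5:32441810-32442115), with the CEBP letters at its summit, had the highest CEBPB enrichment near any member, 28.1 and 29.1 in WT and 14.5 and 13.2 in DKO (log2 −1.05, SE 0.16, limma adjusted p = 9.5e-07), where 67.7% of all 4193 shared CEBPB sites were lower. Centred on the median site, which changed by −0.68, it did not pass (limma adjusted p = 0.0707). The Atf3 promoter (chr1:193007009-193007448) had 14.5 and 15.1 in WT and 11.1 and 13.4 in DKO. This difference did not pass as such (log2 −0.29, SE 0.17, limma adjusted p = 0.127), and its direction depended on the measure. Relative to the median site it was higher by 0.45 (SE 0.15, limma adjusted p = 0.0189), as were 1169 of the 4193 sites after centring, and by −log10 q it was lower (−0.84, limma adjusted p = 0.00162). The other Atf3 sites were both WT-only, and the one at −18072 bp (chr1:193025197-193025385) had 13.6 and 12.8 in WT, nearly the values of the promoter. Fosb (chr7:19895419-19895594, 5.55 and 6.76) and Junb (chr8:87503598-87503823, 8.20 and 10.4) had WT-only CEBPB sites at their promoters. The Fosl1 site at −2976 bp had 14.0 and 17.2 in WT, was not called in DKO replicate 1 and had 6.89 in DKO replicate 2. In all, 6 of 13 CEBPB sites near the members were WT-only and 0 DKO-only, where 39.3% and 0.482% of all 17002 sites were. H3K27ac sites overlapped 10 of the 13, Brd3 sites 7 and p300 sites 1.

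p300 was sparse near the AP-1 genes, with 9 and 4 peaks in WT and 5 and 4 in DKO summed over all members. Of the 3 members tested, Fosl1 (log2 0.00), Jun (−0.50) and Junb (0.29), 0 were called, and 0.943% of 2440 genes were called lower (23 genes, with 295 at an unadjusted limma p under 0.05). Jun, with 3, 0, 1 and 0 peaks, varied as much between the WT libraries as between genotypes. Both p300 sites present in all libraries are printed above: that of Fosl1 at −17690 bp had fold enrichment 4.17, 6.29, 8.05 and 6.20, and that of Junb at −6996 bp had 6.63, 7.74, 5.81 and 5.35, and 0 of 2 passed limma (adjusted p = 0.328 and 0.394), where 3.76% of 1730 sites were lower and 423 had an unadjusted p under 0.05. WT-only sites were 1 of 10, at the promoter of Ercc1 near Fosb, and DKO-only sites 0 of 10, where 15.2% and 0.632% of all p300 sites were. A further p300 site at that promoter was called in 1 DKO library. Of the 10 p300 sites 9 overlapped H3K27ac and 7 overlapped Brd3. H3K27me3, the mark of silenced chromatin, had 5, 1, 0 and 2 peaks near the members, and histone H1 had 0 in any list.

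Other genes of the pathway are given by lists. Among 23 AP-1 partner and related leucine zipper genes, H3K27ac peak number was called for 0 of 22 tested, Brd3 was lower at 9 of 20 (list median −0.72, median gene −1.08) and CEBPB at 5 of 12, and 0 were called higher. The shares of all genes called lower, against which these and the following counts are read, were 4.14% for H3K27ac, 58.5% for Brd3 and 43.4% for CEBPB. Jdp2, a repressor that pairs with Jun, had 3 CEBPB peaks in both WT libraries and 0 in both of DKO. Nfe2l1, a stress-response factor, had 12 and 13 Brd3 peaks in WT and 1 and 2 in DKO (log2 −2.46, SE 0.36, limma adjusted p = 3.58e-10). Among 17 kinases and factors upstream of AP-1 genes, Elk3, a ternary complex factor, was lower in H3K27ac (35, 33, 23 and 27 peaks). Brd3 was lower at 11 of 14 of those tested, among them Mkl1 (8, 7, 1 and 0) and Srf (7, 7, 1 and 3), the pair that act through the CArG box, and CEBPB at 1 of 10 (Mef2a). Genes of these and the following lists that averaged under 1 peak in DKO, such as Jdp2 in CEBPB and Mkl1 in Brd3, passed the filter through their WT libraries, so their differences, and the counts that hold them, are in part built in.

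Of the other immediate early genes Brd3 was lower at 14 of 18 (list median −1.41; 58.5% of all genes) and H3K27ac at 2 of 20, Arc and Dusp5 (4.14% of all genes). Ier2 had 15 and 17 Brd3 peaks in WT and 3 in each DKO library (log2 −2.09, SE 0.31, limma adjusted p = 7.8e-10). CEBPB was lower at 5 of 12, with Dusp6, an ERK phosphatase, at 5, 5, 0 and 1 peaks. Dusp6, Klf10, Zfp36 and Klf6 among these 5 passed the filter through their WT libraries alone. Of 20 genes known as AP-1 targets, H3K27ac was lower at 4 of 17 tested, and the growth factor gene Fgf7 had 25 in each WT library and 16 and 14 in DKO (log2 −0.70, SE 0.17, limma adjusted p = 0.00234). Spp1 (osteopontin), Plaur (the urokinase receptor) and Cd44 were the others, with log2 changes of −0.64, −0.65 and −0.33. Brd3 was lower at 13 of 16 (list median −1.51) and CEBPB at 8 of 10 (−1.47, median gene −0.71), where 58.5% and 43.4% of all genes were, with the chemokine gene Ccl2 at 7, 6, 1 and 2 CEBPB peaks. p300 was called lower by limma at 0 of 5, 0 of 3, 0 of 9 and 0 of 9 genes of the 4 lists, and 0 genes of these lists were called higher for any of the 4 antibodies.

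In ESCs 4 comparisons of a member were called, all higher in DKO, where the lists were longer: they held 52307 and 53524 Nanog peaks in WT and 62697 and 64486 in DKO, and 11140 and 12627 Oct4 peaks in WT and 26742 and 30864 in DKO. Other antibodies were used there, so the cell types are set side by side and were not tested against each other. Nanog, a pluripotency factor, had 2 and 4 peaks near Junb in WT and 10 and 6 in DKO (log2 1.18, SE 0.27, limma adjusted p = 0.000857), 3 and 2 near Fosb in WT and 5 and 8 in DKO (log2 1.08, SE 0.30, limma adjusted p = 0.00687), and 7 and 11 near Jund in WT and 12 and 15 in DKO (log2 0.56, SE 0.17, limma adjusted p = 0.0164). The genotypes did not overlap at these 3 genes nor at Atf3 (5 and 5, 6 and 6), and 42.4% of all genes were apart in this direction. Thus 3 of 8 members were called higher, where 11.8% of 18956 genes were and 0.0317% were lower. Fos (7, 6, 7 and 9) and Fosl2 (4 in each library) were not called. Oct4 was called higher at 1 of the 4 members tested, Fosb (1, 0, 2 and 3 peaks; log2 1.29, SE 0.49, limma adjusted p = 0.021), where 47.7% of 12959 genes were. Fosb passed the filter there through its DKO libraries alone, so this difference is in part built in. CTCF, an insulator protein, had 69, 67, 69 and 67 peaks near the members together, and by limma 0 of 8 were called (24 of all genes were, with 961 at an unadjusted p under 0.05). Klf4 and Sox2, also factors of pluripotent cells, were called by limma at 0 of 6 and 0 of 1 members, where 160 and 1391 genes had an unadjusted p under 0.05 and 3.39% of genes were called higher for Sox2. With counts scaled to the number of peaks, the split over all genes moved from 6 lower and 2228 higher to 25 and 358 for Nanog, and for Oct4 from 0 lower of 6175 called to 324 lower of 1435 called. Of the 4 calls Junb for Nanog then stood (0.97, limma adjusted p = 0.0245), and Atf3 was called lower for Oct4 (−0.79, limma adjusted p = 0.0307). With the prior variance from all genes 0 of the 4 calls above were made. Others were made in their place, of Atf3 as higher for Nanog (0.22, limma adjusted p = 0.0172) and Oct4 (0.26, limma adjusted p = 0.00137), and of Fosb (−0.10, limma adjusted p = 0.00106) and Jun (−0.22, limma adjusted p = 4.74e-05) as lower for CTCF.

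In rBs 5 comparisons of a member were called, all lower in DKO, where the lists were shorter: they held 9102 and 10969 Ikaros peaks in WT and 5032 and 4838 in DKO, and 4524 and 4561 Ets1 peaks in WT and 1220 and 1098 in DKO. Ikaros, a zinc finger regulator of lymphocytes, had 4 peaks near Fos in both WT libraries and 1 in both of DKO (log2 −1.32, SE 0.38, limma adjusted p = 0.00328), 5 near Fosl1 in both WT libraries and 2 in both of DKO (log2 −1.0, SE 0.32, limma adjusted p = 0.00764), and 6 and 9 near Fosb in WT and 4 and 5 in DKO (log2 −0.61, SE 0.24, limma adjusted p = 0.0325). Junb (6, 11, 7 and 7), Jund (5, 6, 4 and 6) and Jun (3, 2, 2 and 3) overlapped between genotypes. These were 3 of 7 members tested, where 35.7% of 6532 genes were lower. The genotypes were apart at 4 of 7 members with Atf3 (4, 3, 1 and 2), as at 55.7% of all genes, and apart in the other direction at 0, as at 1.26%. Ets1 had 5 and 3 peaks near Fos in WT and 1 in each DKO library (log2 −1.29, SE 0.39, limma adjusted p = 0.008) and 3 near Junb in both WT libraries and 0 in both of DKO (limma adjusted p = 0.00203), so 2 of 5 members were lower where 40.4% of 3065 genes were, and 4 of 5 were apart, as were 59.7% of all genes. Junb passed the filter through its WT libraries alone. Irf8 was called by limma at 0 of 1 member tested (4 of 449 genes were called and 84 had an unadjusted p under 0.05), and the Oct2 and Pax5 lists, with 8 and 35 genes above the filter, were too short to be fitted. With counts scaled to the number of peaks, the split over all genes moved from 2332 lower and 10 higher to 175 and 171 for Ikaros, and from 1239 and 0 to 645 and 254 for Ets1. Of the 5 calls Junb for Ets1 then stood (−1.53, limma adjusted p = 0.0335), and Fosb was called higher for Ets1 (0.90, limma adjusted p = 0.0136). With the prior variance from all genes the calls were Fos and Fosl1 for Ikaros and Junb and Atf3 for Ets1, so 3 of the 5 were kept. Without any 1 library 0 of the ESC calls and 0 of the rB calls remained, in fits that called 1 to 31 genes in all for Nanog, 2 to 656 for Oct4, 21 to 259 for Ikaros and 0 to 79 for Ets1.

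**Figure D5:**
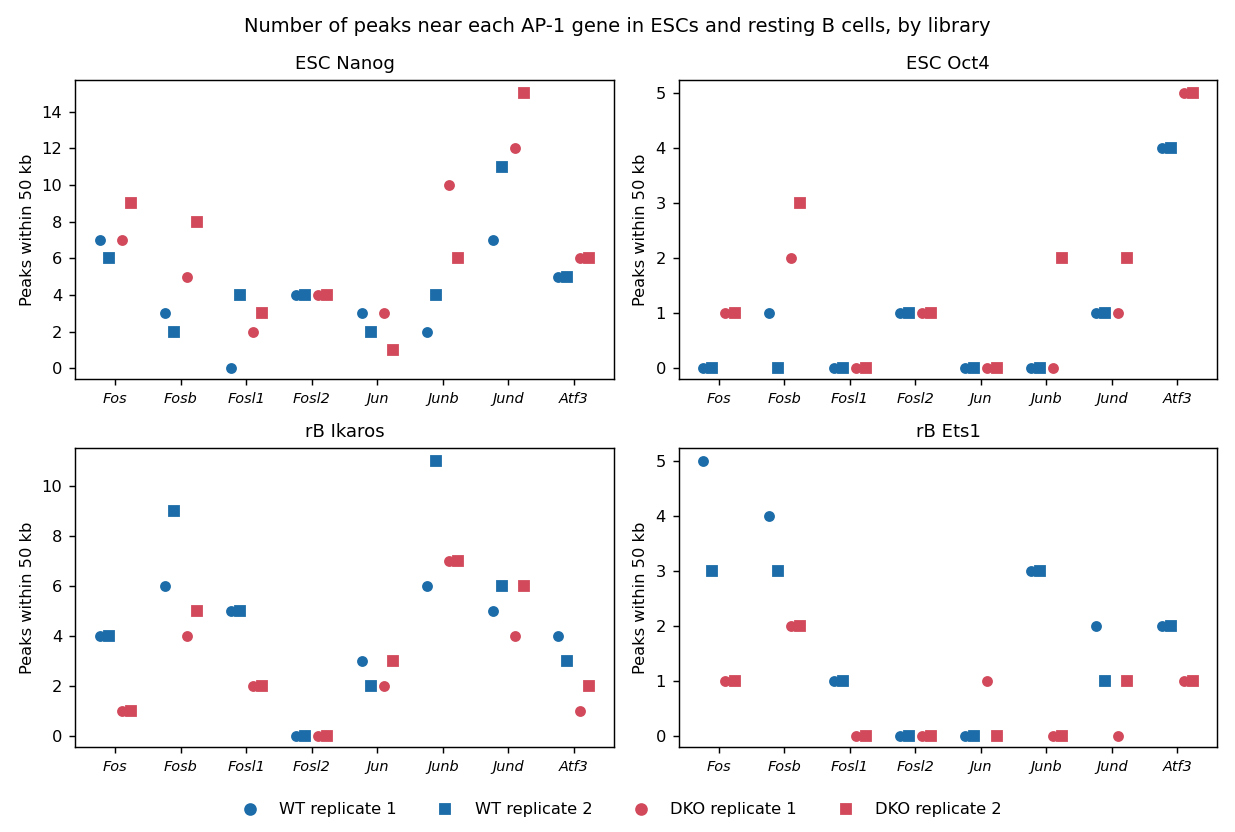
Number of peaks within 50 kb (vertical axis, peaks per library) of each AP-1 gene for Nanog and Oct4 in ESCs and Ikaros and Ets1 in rBs, with 1 point per library and WT in blue and DKO in red. Nanog counts near Junb, Fosb and Jund lie higher in both DKO libraries, and Ikaros and Ets1 counts near Fos lie lower in both.

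Across all 64 lists the members did not share 1 profile. Pearson's r of a member's log2 peak number with the mean of all members, after each list's mean over all genes was subtracted, ran from 0.89 for Fosb and 0.88 for Fosl1 to 0.50 for Fosl2 and 0.07 for Atf3. The genes most like the mean of the members were Stk11 (r = 0.94), Midn, Dos, Atp5d and Snx9 (0.92 each), over 64 lists that share antibodies, genotypes and list lengths, so the values are a description only. Their windows were kept apart from those of the members but not from each other, so these genes may count the same peaks. In WT MEFs Junb, Fosl1, Jun, Fosl2 and Fosb stood at percentiles between 95.4 and 98.0 of all genes in Brd3 peak number, Jund and Fos at 89.5 and 69.4, and Atf3 at 54.5. Per 100 kb of window the WT means for Brd3 were 15.7 for Junb, 14.1 for Jun, 13.9 for Fosl1, 11.2 for Fosb, 10.7 for Fosl2, 8.26 for Jund, 4.35 for Fos and 2.65 for Atf3. Junb, with 14 and 18 peaks, and Jun and Fosl1, with 13 to 16, did not differ beyond the spread of their libraries, nor did Fosb and Fosl2.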

How the data were processed

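ChIP-seq peak lists of 64 libraries were used, with 2 biological replicates of WT and DKO for each of 16 antibodies (6 in MEFs, 5 in ESCs and 5 in rBs). According to the submitters' notes and the methods of the study, reads were converted with bcl2fastq 1.8.4, trimmed with cutadapt 1.16 and mapped to mm9 with BWA 07.17, duplicates were marked with Picard, and narrow peaks were called with MACS2 2.1.1.20160309 for each library against input. The deposited fold enrichment is, as the authors' caller wrote it, the ratio of pileup to local background at the summit with 1 added to both terms (in the libraries whose pileups could be solved), which draws weak peaks towards 1; the plain ratio is an alternative. The authors' caller also tested each summit with a Poisson model, and its result was deposited as −log10 p and, corrected, as −log10 q. The deposited score is a whole number made by the authors' caller from 10 times −log10 q. No read counts were used, so depth is known only in part. Pileup and background were solved from fold enrichment and −log10 p where whole reads fitted within 0.0005 plus 2e-05 times the value, and a library counted as solved where at least 85% of its peaks gave whole pileups. A short list contains fewer weak peaks, so peak numbers follow depth and enrichment as well as occupancy.

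Peaks within 50 kb of gene bodies were counted with Python 3.11.15 and pandas 2.3.3. Log2 of the count plus 1 was fitted over genes with at least 1 peak on average with limma 3.58.1 in R 4.3.3, with a variance trend and without a replicate block, and adjusted by Benjamini-Hochberg at 0.05. Sites were peaks of an antibody's 4 libraries merged by an overlap of 1 bp, and log2 fold enrichment of the highest peak was fitted in the same way over sites called in all 4. One step departs from the plan: the planned fit of peak numbers takes its prior variance from all genes, but many genes have tied replicates. After the numbers of calls had been seen, the prior was estimated from genes whose replicates differ. Tests on simulated data then showed that the planned prior missed known changes for H3K27ac and Brd3 and called unchanged genes for CEBPB, and one of the kinds of test data was itself added after the other had failed. The planned prior is kept as an alternative, and its calls of members are given beside the main ones; it was not applied to the gene lists.

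The members, gene lists, motifs and rules were chosen with earlier results of these data known. The text names all 8 members, the strongest site of each member at and outside its promoter, sites past the fit or called in 1 genotype, up to 5 genes of each list past the fit, and the 5 genes most like the members. Some examples among these were picked after their values were seen. Genes are those of GENCODE vM1, and sequences come from the NCBIM37 assembly, which is mm9 (1 of 1156918 peaks lay outside it). Alternatives cover windows of 10 and 100 kb, stricter thresholds (−log10 q or fold enrichment of at least 4), list lengths, merging, other measures, a pseudocount of 0.5, no filter, other variance models, a replicate block and each replicate left out. Plots were drawn with matplotlib 3.10.9. The count of H3K27ac calls over the list of upstream kinases and factors is not reported here.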

Additional observations from a re-analysis of the deposited data

How the results depend on the processing

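Only 2 libraries per genotype were available, so each call rests on the fit. The depth of the CEBPB and Nanog libraries, of both DKO libraries of Ikaros and of DKO replicate 1 of Ets1 is unknown. The fit calls 1 member for H3K27ac, 0 for p300, 8 for Brd3 and 2 for CEBPB, 4 members' comparisons in ESCs and 5 in rBs. Of the recomputed counts 111 stayed within 1.5 times the value reported and 90 did not. A window of 100 kb gave 2 members for H3K27ac, 7 calls in ESCs, 10 in rBs, and 2 p300 and 10 CEBPB WT-only sites. A window of 10 kb gave 4 members for Brd3, 0 for CEBPB, 0 calls in ESCs and 1 in rBs, with 8 H3K27ac, 0 p300, 11 Brd3 and 2 CEBPB WT-only sites and 1 H3K27ac DKO-only site. With lists shortened to an equal number of their strongest peaks, 0 members were called for H3K27ac, Brd3 and CEBPB, 0 in ESCs and 0 in rBs, and 0 p300, 3 Brd3 and 1 CEBPB sites were WT-only. The Brd3 fit then called 3 genes lower and 13 higher over all genes. Scaling to the number of peaks gave 0 members for H3K27ac, 2 for Brd3, 1 for CEBPB, 2 calls in ESCs and 2 in rBs. For CEBPB it moved the split over all genes from 2782 lower and 3 higher to 1326 and 464, and for H3K27ac from 716 and 143 to 290 and 220. Under it the Brd3 values turned positive at Fosl1 (0.51), Fosl2 (0.69), Fosb (0.76) and Junb (0.24), and with the same number of top peaks at Fosl1 (0.31) and Fosb (0.63). The cause was not tested.

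Counting peaks within 1000 bp as 1 gave 0 members for H3K27ac and 3 calls in rBs. Summed fold enrichment gave 3 members for H3K27ac, 10 calls in ESCs and 9 in rBs, and base pairs covered gave 3 members for H3K27ac and 10 calls in rBs. Without a variance trend 0 members and 6 sites were called for H3K27ac. With the prior variance of all genes, 0 members were called for H3K27ac, 4 for Brd3 and 1 for CEBPB, and over all genes 345 were called for H3K27ac, 4260 for Brd3 and 219 for p300, against 859, 8219 and 23. It gave 4 calls in ESCs, 0 of them among the 4 reported, and 4 in rBs, 3 of them among the 5 reported. This prior was the planned one, and the prior of the values reported was chosen after seeing the data. Centring on the median shared site left 6 H3K27ac and 0 Brd3 sites. Comparing −log10 q gave 4 H3K27ac, 7 Brd3 and 2 CEBPB sites. Pileup over background gave 0 Brd3 sites and could not be run for CEBPB, and summits matched within 500 bp gave 1 Brd3 site. Merging sites within 1000 bp left 5 H3K27ac, 0 p300 and 11 Brd3 WT-only sites. Taking either library of a genotype gave 56 H3K27ac, 4 p300, 67 Brd3 and 10 CEBPB WT-only sites and 26 H3K27ac DKO-only sites.

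Leaving out each library in turn gave 0 members for H3K27ac, 0 to 5 for Brd3, 0 for CEBPB, 0 calls in ESCs and 0 in rBs. Over all genes it left 33 to 4799 genes called lower for Brd3, 3 to 17 called for H3K27ac and 0 to 313 for CEBPB. WT-only sites ranged from 18 to 36 for H3K27ac, 1 to 4 for p300, 30 to 46 for Brd3 and 6 to 10 for CEBPB, and DKO-only H3K27ac sites from 6 to 18, and these settings of the sites were added after seeing the data. Sites called ranged from 6 to 8 for H3K27ac and 0 to 2 for Brd3. The lone library left in a genotype is assumed to vary like the others.

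The labels give replicate numbers but do not say that they pair libraries. The replicate differences of the genotypes correlated between −0.0717 and 0.0319 over genes, except −0.2493 for Irf8 in rBs, so no pairing was assumed. With a replicate block 1 member was called for CEBPB (Fosb), 2 calls stood in rBs, and the other counts of members and sites stayed within 1.5 times. Under the block the limma adjusted p was 0.0529 for Fosb in Brd3, 0.0969 for Atf3 in CEBPB, 0.0988 for Fosb in Oct4, 0.0577 for Fos in Ets1, and 0.113 and 0.0675 for Fosb and Fosl1 in Ikaros, so these calls were not made. Over all genes the block called 435 genes for H3K27ac and 1242 for CEBPB. For Irf8, 4 genes were called without a block, 0 with it and 0 with the crossed block, which was added after seeing the data. Some settings of Irf8 left too few genes to be fitted. For single members 121 recomputed values kept direction and side of the threshold, 6 reversed, and 64 no longer passed without turning sign, some of them at 0.00: Fosl2 in H3K27ac and Brd3 with peaks within 1000 bp counted as 1, Junb in Brd3 with an equal number of top peaks and Atf3 in CEBPB with 10 kb.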
